A study of Drosophila melanogaster with 24 samples.

Results

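miR-263a-5p (dme-miR-263a-5p in the deposited table) and miR-263b-5p (dme-miR-263b-5p) are the main products of a pair of related Drosophila microRNA genes, and they were followed here library by library at a young and an old age in body tissue and in hemolymph, the open circulation that bathes the organs. They were taken by name from the deposited count table, where each had 1 row, so the members are 2 of the 466 mature microRNA names of the table and 2 of the 329 with at least 1 count. Small RNA was sequenced from Drosophila melanogaster labelled male in 4 groups. Body tissue was sampled at 2 days (young body, 4 libraries) and at 25 days (old body, 8 libraries), and hemolymph likewise at 2 days (4 libraries) and 25 days (8 libraries). The labels give no strain, genotype or treatment for any group, and do not state that libraries came from different flies or pools. The p-values therefore speak only of the spread among these libraries, which may be technical. A serum and plasma kit was used for hemolymph and the standard miRNeasy kit for body, so kit and compartment cannot be told apart. Within each old group, libraries 1 to 4 carry the code letter O and libraries 5 to 8 the letter R, whose meaning is not given in the sources used here.

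A microRNA guides the Argonaute complex to messenger RNAs that pair with its seed, which lowers their stability and translation. In the fly eye, miR-263a and miR-263b are known to protect the mechanosensory bristle organs between the facets from cell death by repressing the pro-apoptotic gene hid. miR-263a is also known from the intestine, where it limits subunits of an epithelial sodium channel, and miR-263b from clock neurons, where it acts on daily behaviour. They belong to the same family as the microRNAs of vertebrate hair cells and photoreceptors in the miR-183 cluster.

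The genes lie apart. In the Ensembl annotation of the BDGP6 assembly (dm6 coordinates, the build named by the submitters), the hairpin of miR-263a is gene mir-bft, for the bereft locus, at 2L, 11953410 to 11953503 on the minus strand. Its 5p arm is annotated at 11953463 to 11953486. The hairpin falls in exon 2 of transcript RD of the long noncoding RNA gene lncRNA:CR43314 (2L, 11952200 to 11971094, minus strand), and beyond the 3′ end of transcripts RA and RC. The hairpin of miR-263b is at 3L, 15843406 to 15843495 on the minus strand, with its 5p arm at 15843460 to 15843480. It lies in an intron of the protein-coding gene meru (3L, 15837773 to 15844062, minus strand), between exons that end at 15841129 and start at 15843544, in all 3 annotated transcripts. Meru is known for a role in the asymmetric division of sensory organ precursor cells. Neither hairpin has another annotated microRNA hairpin within 10 kb, so the members are not part of a microRNA cluster.

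**Figure D1:**
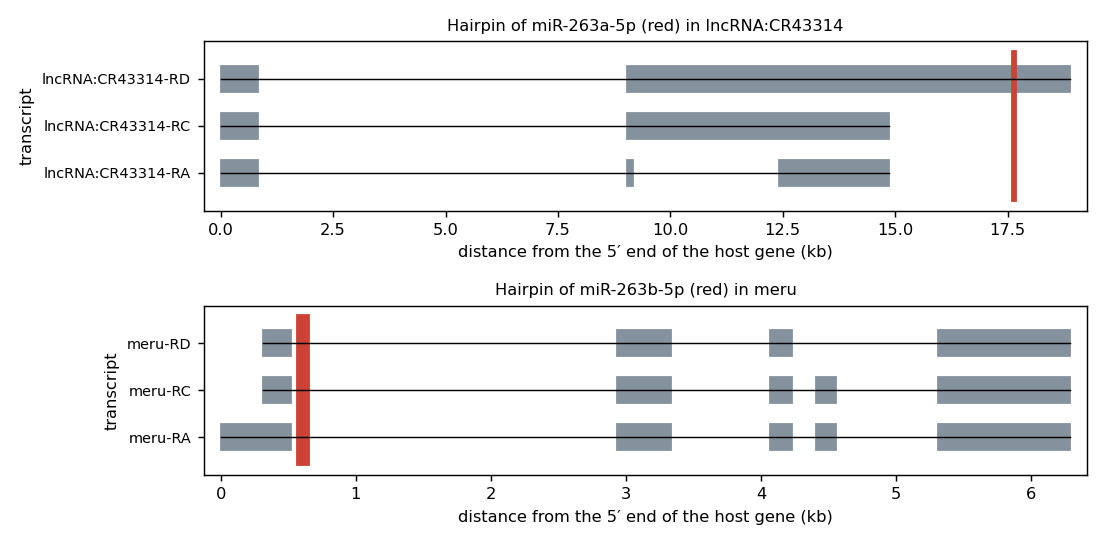
Position of the hairpins of miR-263a-5p (top) and miR-263b-5p (bottom) in their host genes, with distance from the 5′ end of the host gene in kb on the horizontal axis, 1 line per annotated transcript, grey boxes for exons and a red bar for the hairpin. The miR-263a hairpin falls in an exon of 1 of the 3 transcripts, and the miR-263b hairpin in an intron of all 3.

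Levels are given as CPM, the count per 1000000 microRNA counts of a library, and changes as log2 fold changes from edgeR's quasi-likelihood test with TMM scaling, with Benjamini-Hochberg adjustment over all microRNAs tested and a threshold of 0.05. Library totals ran from 136692 to 242935 counts in body and from 52792 to 275974 in hemolymph. Muscle is marked by miR-1-3p with miR-133-3p, which together took 0.153% to 0.447% of counts in body and 0.00267% to 0.0393% in hemolymph, and the neuronal miR-124-3p was at 0 in 11 of the 12 hemolymph libraries. All 4 ovary microRNAs listed were counted in body libraries, which are labelled male. Their summed share was 0.256%, 1.50%, 8.04% and 6.93% in young body libraries 1 to 4, 1.98% to 3.58% in old body, and 0.00236%, 0.00507%, 0.121% and 0.215% in young hemolymph libraries 1 to 4. Old hemolymph libraries held 0.0227% to 2.03%, highest in library 4. In this summed share young libraries 1 and 2 thus stood apart from young libraries 3 and 4 in both compartments. The listed miR-989-3p did not follow it, with 2418, 5322, 3542 and 4236 CPM in young body libraries 1 to 4 and 11.8, 7.25, 0 and 0 CPM in young hemolymph. The 6 listed testis microRNAs together took 0.00534% to 0.0198% of counts in body. Values of the members that rest on young libraries are given also for libraries 1 and 2 and for libraries 3 and 4 where such a fit was made, and the part of the ovary microRNAs in them was not tested.

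miR-263a-5p was one of the most abundant microRNAs of the body. It held places 4 to 7 among all microRNAs in the old body libraries and places 5 to 10 in the young ones. In young body it stood at 30959, 29886, 50274 and 44996 CPM in libraries 1 to 4, from 5385 to 10931 counts per library. In old body the lowest library had 45889, the median was 49810 and the highest had 59242 CPM. In these unscaled values all 8 old body libraries lay above young body libraries 1, 2 and 4, but library 3 of the young body reached into the old range. In TMM-scaled log2 CPM, minus its mean over the 24 libraries, young body ran from 0.37 (library 3) to 0.50. Old body ran from 0.67 to 1.03 on that scale, without overlap. In old hemolymph it ran from 13997 to 27374 CPM with a median of 19303, at places 9 to 12. These old groups did not overlap. Within old hemolymph the O-coded libraries had 23385, 22650, 17787 and 27374 CPM and the R-coded ones 14329, 13997, 15748 and 20818 CPM, ranges that overlapped.

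Young hemolymph held the widest spread of miR-263a-5p of any group. Libraries 1 and 2 had 59947 and 33913 CPM, and libraries 3 and 4 had 5231 and 5517 CPM. Libraries 1 and 2 lay at or above the young body libraries of the same numbers, and libraries 3 and 4 lay below every other library of the series. The counts behind these values were 10180, 9359, 293 and 382, and the library totals were 169817, 275974, 56010 and 69239. Counting error alone (exact Poisson 95% interval) allowed 4649 to 5866 CPM in library 3, and 58788 to 61123 CPM in library 1. The SD over the 4 libraries, 26241 CPM, was 65.1 times the SD that counting error gives, against 9.29 times in old hemolymph and 7.86 times in old body. Ordered by mean, miR-263a-5p was highest at 50364 ± 4394 CPM in old body (SD, n = 8), then 39029 ± 10178 in young body (n = 4). It was at 26152 ± 26241 in young hemolymph (n = 4) and 19511 ± 4823 in old hemolymph (n = 8). The unscaled CPM ranges of neighbours in this order overlapped in all 3 steps.

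miR-263b-5p was scarce everywhere. It had 44, 23, 25 and 37 counts in young body libraries 1 to 4, which is 235, 128, 127 and 152 CPM. In old body it had 7 to 15 counts per library, with 47.8 CPM in the lowest, a median of 67.6 and 110 in the highest library. All 4 young body libraries were above all 8 old ones. In young hemolymph it had 7, 15, 2 and 1 counts (41.2, 54.4, 35.7 and 14.4 CPM). Old hemolymph held 0 to 3 counts per library, with 26.2 CPM in the highest and a median of 18.5. Old hemolymph libraries 2 and 6 had 0 counts, for which the exact Poisson 95% interval reaches 66.95 and 43.6 CPM. There 3 counts would be 54.4 and 35.5 CPM. The order of means was 160 ± 51.1 CPM in young body (SD, n = 4), 70.0 ± 22.4 in old body (n = 8), then 36.4 ± 16.6 in young (n = 4) and 15.2 ± 10.2 in old hemolymph (n = 8). Of the neighbours in this order the body groups did not overlap, and the other pairs did.

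The spread of miR-263b-5p between libraries was close to counting error. Its SD was 1.07 times the counting SD in old body, 0.927 times in young hemolymph and 0.744 times in old hemolymph, and 1.80 times in young body, where library 1 was the highest. Summed over libraries, there were 129 counts in young body, 92 in old body, 25 in young hemolymph and 11 in old hemolymph. The pooled level in hemolymph was 43.8 CPM in young flies (exact Poisson 95% interval 28.3 to 64.6) and 16.7 CPM in old flies (8.36 to 30.0). Such intervals cover counting error only, because reads without molecular identifiers are not independent molecules.

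**Figure D2:**
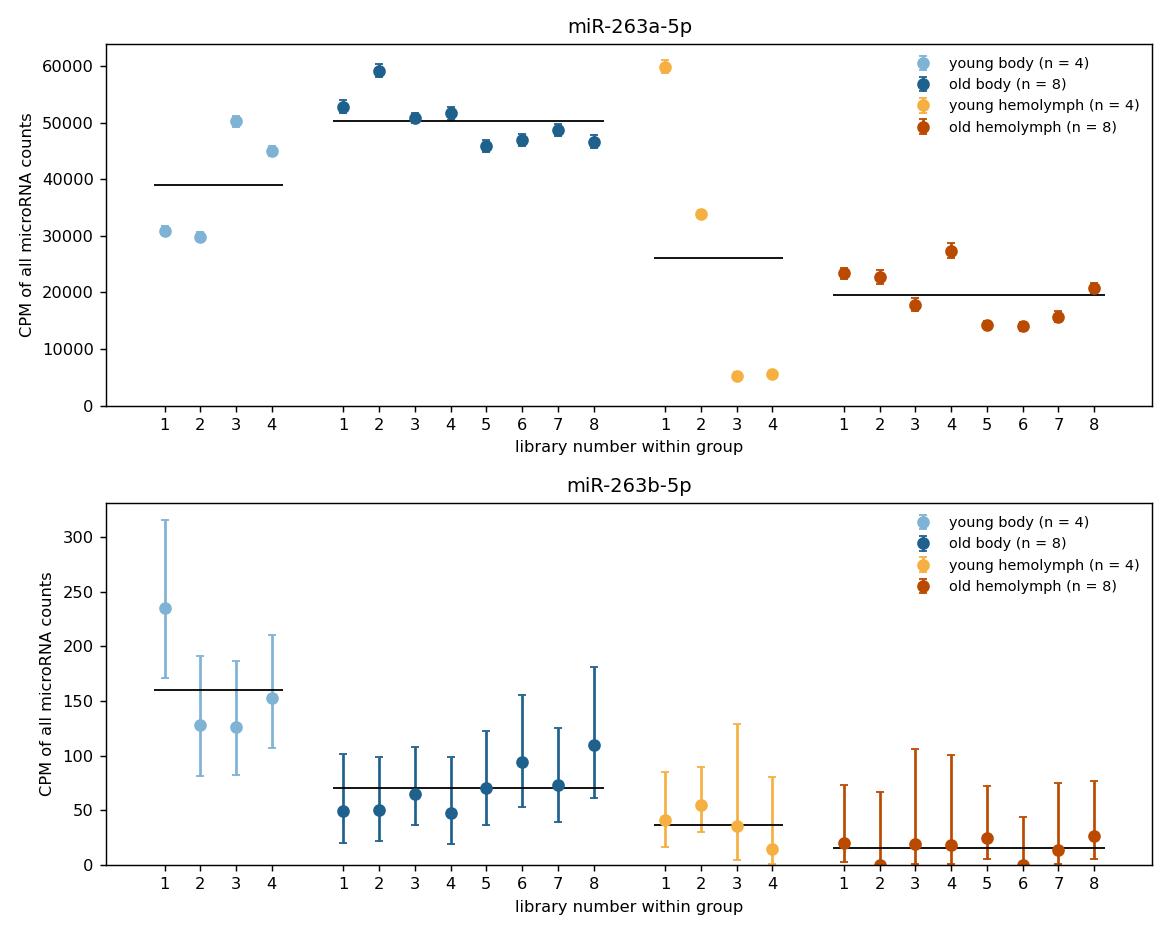
CPM of all microRNA counts for miR-263a-5p (top) and miR-263b-5p (bottom) in every library, with library numbers within each group on the horizontal axis; points are libraries, vertical bars are exact Poisson 95% intervals and black lines are group means. Young hemolymph libraries 3 and 4 have 5231 and 5517 CPM of miR-263a-5p against 59947 and 33913 in libraries 1 and 2, and the young body libraries are above all old body libraries for miR-263b-5p.

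The comparison of ages in body tissue asks how tissue microRNAs change from 2 to 25 days. miR-263b-5p fell with age, with a log2 fold change of -1.25 ± 0.28 (SE, adjusted p = 0.00304, n = 8 and 4), which is 2.37-fold lower. miR-263a-5p rose by 0.34 ± 0.12 on the log2 scale (adjusted p = 0.0353), or 1.27-fold. Of the 115 microRNAs tested, 48.7% were called, 19.1% higher and 29.6% lower, and miR-263b-5p was the 18th from the lowest change. Muscle and neuronal microRNAs moved in the same direction. The summed muscle share was 0.225% to 0.447% in young and 0.153% to 0.202% in old body without overlap, miR-1-3p fell by 1.44 on the log2 scale (adjusted p = 0.000639), miR-133-3p was at -0.41 (adjusted p = 0.0779) and the neuronal miR-124-3p fell by 1.28 (adjusted p = 0.042). The share of miR-124-3p was 0.0502%, 0.0361%, 0.00961% and 0.00700% in young body libraries 1 to 4, and 0.00751% to 0.0157% in old body. Only young libraries 1 and 2 were thus above the old range for it. Young body library 1, the highest for miR-263b-5p, was also the highest of the body libraries for the muscle share and for miR-124-3p. The part of these muscle and neuronal microRNAs in the fall of miR-263b-5p was not tested. In bulk tissue, fewer cells of a type and less RNA per cell cannot be told apart. Against young libraries 1 and 2 alone the log2 fold changes were -1.49 ± 0.30 for miR-263b-5p (adjusted p = 0.000641) and 0.61 ± 0.11 for miR-263a-5p (adjusted p = 0.000275). Against young libraries 3 and 4 alone they were -0.94 ± 0.27 (adjusted p = 0.00809) and 0.14 ± 0.10 (adjusted p = 0.266).

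The fall of miR-263b-5p was called without any 1 library (-1.50 to -0.95). With only O-coded old libraries it was -1.69 ± 0.25 (adjusted p = 0.00402), and with only R-coded ones -0.93 ± 0.32, not called (adjusted p = 0.063). The call of miR-263a-5p was lost when 11 of the 12 libraries were left out singly, the exception being library 3 of the young body. Its value was 0.19 without old body library 1, 0.20 without old body library 8 and 0.54 without young body library 3. It was 0.28 and 0.25 with O-coded or R-coded old libraries alone (adjusted p = 0.446 and 0.426).

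In old flies both members were lower in hemolymph than in body. miR-263b-5p was lower by a log2 fold change of -2.13 ± 0.42 (adjusted p = 5.61e-05) and miR-263a-5p by -1.49 ± 0.33 (adjusted p = 0.000208), which are 4.39-fold and 2.81-fold. Of the 124 microRNAs tested 82.3% were called, 46% lower and 36.3% higher, and the median of all tested was -0.45, so the members were 2 of 57 lower calls in a comparison where most microRNAs were called. Leaving out any 1 library gave -1.55 to -1.38 for miR-263a-5p and -2.30 to -1.93 for miR-263b-5p. With O-coded old libraries only, miR-263a-5p was at -1.33 ± 0.59 and not called (adjusted p = 0.0572), and with R-coded ones at -1.57 ± 0.59 (adjusted p = 0.0244). The value of miR-263b-5p rests on 11 counts over all 8 old hemolymph libraries.

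In young flies miR-263b-5p was also lower in hemolymph, with a log2 fold change of -1.90 ± 0.44 (adjusted p = 0.000509), 3.72-fold, and its values in hemolymph, 14.4 to 54.4 CPM, were all below those in body. miR-263a-5p was at -0.43 ± 0.45 and not called (adjusted p = 0.399). All 24 libraries enter the scaling, and without any 1 of old body libraries 1 to 4 and 6 to 8, or without old hemolymph library 4, it was at -0.72 to -0.70, also not called. Of the 124 microRNAs tested, 73.4% were called, 40.3% lower and 33.1% higher. The value of miR-263a-5p took opposite signs in these pairs of young libraries. With young libraries 3 and 4 alone it was lower in hemolymph by a log2 fold change of -3.19 ± 0.22 (adjusted p = 2.25e-10), and with libraries 1 and 2 alone it was at 0.52 ± 0.34 (adjusted p = 0.165). The same pairs gave -2.54 ± 0.63 and -1.86 ± 0.48 for miR-263b-5p (adjusted p = 0.00116 and 0.00183).

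Over the 124 microRNAs, deviations of same-numbered young body and hemolymph libraries correlated at 0.12 to 0.603. These deviations were taken in TMM-scaled log2 CPM. On that scale, minus its mean over the 24 libraries, miR-263a-5p was at 0.48, 0.41, 0.37 and 0.50 in young body libraries 1 to 4. In young hemolymph it was at 1.14, 0.49, -2.43 and -2.14, so the pairs of young libraries stood apart in hemolymph only. In unscaled CPM its mean was 30423 in body libraries 1 and 2 and 47635 in libraries 3 and 4, against 46930 and 5374 in hemolymph. With the replicate block miR-263a-5p was lower in young hemolymph by -1.17 ± 0.49 (adjusted p = 0.0406). Without young hemolymph library 1 it was called lower too (-1.28, adjusted p = 0.0123), and without young hemolymph library 3 it was at -0.17 (adjusted p = 0.702). Scaling moved it as well. RLE scaling, which shifted all tested microRNAs by a median of -0.48, gave -1.09 (adjusted p = 0.027), and upper-quartile scaling, with a median shift of 0.61, gave 0.18 (adjusted p = 0.729). miR-263b-5p stayed lower and called under both (-2.38 and -1.25).

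**Figure D3:**
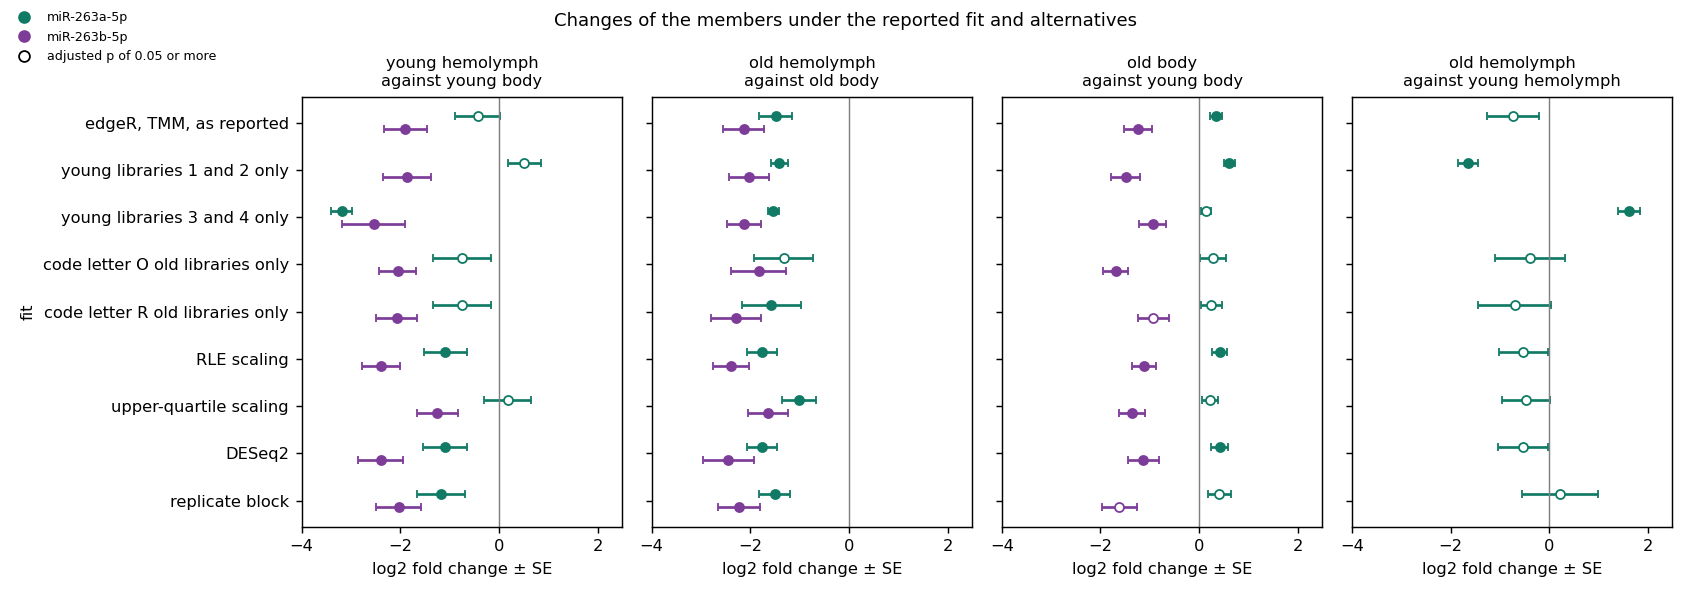
log2 fold changes (horizontal axis, points with SE) of miR-263a-5p (green) and miR-263b-5p (purple) in 4 comparisons, in the fit as reported and in 8 alternatives (vertical axis); filled points have an adjusted p below 0.05. miR-263b-5p is left of 0 wherever it is shown, and miR-263a-5p in young hemolymph against young body runs from -3.19 with young libraries 3 and 4 to 0.52 with libraries 1 and 2.

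Between old and young hemolymph miR-263a-5p was at -0.74 ± 0.53 and not called (adjusted p = 0.278), where 46.5% of 86 microRNAs tested were called, 18.6% higher and 27.9% lower. Here the pairs of young libraries gave opposite calls. It was lower in old hemolymph against young libraries 1 and 2 (-1.64 ± 0.21, adjusted p = 5.81e-05) and higher against young libraries 3 and 4 (1.61 ± 0.22, adjusted p = 0.000101). The old hemolymph libraries, at 13997 to 27374 CPM, lay wholly between young libraries 1 and 2 and young libraries 3 and 4. Leaving out young hemolymph library 1 gave 0.055 and leaving out library 4 gave -0.90, with no call in either.

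miR-263b-5p did not pass the low-count filter of the hemolymph libraries and has no value in that fit. Fitted over all 24 libraries it was lower in old hemolymph (-1.50 ± 0.51, adjusted p = 0.0227), and without a filter in the 12 hemolymph libraries it was at -1.41 ± 0.67 (adjusted p = 0.174). The age change in hemolymph minus that in body was -1.06 ± 0.56 for miR-263a-5p (adjusted p = 0.182) and -0.24 ± 0.55 for miR-263b-5p (adjusted p = 0.832), where 14.5% of 124 microRNAs were called, 6.45% higher and 8.06% lower. For miR-263a-5p it was -1.93 ± 0.38 with young libraries 1 and 2 (adjusted p = 0.00162) and 1.66 ± 0.23 with young libraries 3 and 4 (adjusted p = 2.02e-05). For miR-263b-5p these were -0.17 ± 0.55 and 0.41 ± 0.92 (adjusted p = 0.857 and 0.771). The value of miR-263a-5p was -0.20 without young hemolymph library 1 (adjusted p = 0.815) and -1.31 without young hemolymph library 3 (adjusted p = 0.0561).

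The ratio of the members within a library does not depend on how libraries are scaled. It was taken as log2 of the miR-263a-5p count over the miR-263b-5p count, with 0.5 added to each. In young body it was 7.03, 7.84, 8.61 and 8.19 in libraries 1 to 4, and in old body it ran from 8.68 to 10.1 with a median of 9.44. Every old body library was above every young one. The means of 7.92 ± 0.67 and 9.48 ± 0.52 stand for 241-fold and 714-fold more miR-263a-5p than miR-263b-5p. The members therefore differed in their age change in body by 1.57 on the log2 scale (exact permutation p = 0.00404, two-sided, the smallest that 8 against 4 libraries can give; adjusted over 5 comparisons p = 0.0202). The shift was 2.05 with young libraries 1 and 2 and 1.08 with young libraries 3 and 4, and with 2 young libraries no adjusted p under 0.05 could be reached. As a share of the pair's counts summed over libraries, miR-263b-5p made up 0.401% in young body (exact binomial 95% interval 0.335% to 0.476%) and 0.138% in old body (0.111% to 0.169%). These intervals cover counting error only. By library the share was 0.753%, 0.425%, 0.251% and 0.337% in young body libraries 1 to 4, and 0.0848% to 0.235% in old body.

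In hemolymph the ratio varied more. It was 10.4, 9.24, 6.88 and 7.99 in young libraries 1 to 4, and ran from 8.95 to 11.3 in the old ones with a median of 9.74. The highest, 11.3 and 11.2 in libraries 2 and 6, are those with 0 counts of miR-263b-5p, where the added 0.5 sets the value. Old and young hemolymph differed by 1.32 (exact permutation p = 0.097, adjusted p = 0.242). This value was 0.13 with young libraries 1 and 2 and 2.52 with young libraries 3 and 4, and 0.74 without young hemolymph library 3. Hemolymph and body differed by 0.71 in young flies (exact permutation p = 0.429, adjusted p = 0.536) and by 0.47 in old flies (exact permutation p = 0.216, adjusted p = 0.36). The difference in young flies was 2.39 with young libraries 1 and 2 alone and -0.96 with libraries 3 and 4 alone. That in old flies moved with the added constant, from 0.048 with 1 added to 1.24 with 0.1 added. As a percent of the pair's counts, miR-263a-5p was higher in old hemolymph than in old body by 0.0617 points (exact permutation p = 0.0474, adjusted p = 0.0875). The age change of the ratio in hemolymph minus that in body was -0.24 (exact permutation of age labels within compartments, p = 0.812, adjusted p = 0.812), with 1.43 when only young libraries 3 and 4 were used and -1.92 when only young libraries 1 and 2 were used. In young flies 4 against 4 libraries cannot give a p below 0.0286, which beside the other 4 p-values could not pass the adjustment, so this comparison says little. The 0 to 3 counts of miR-263b-5p per old hemolymph library limit the precision there.

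**Figure D4:**
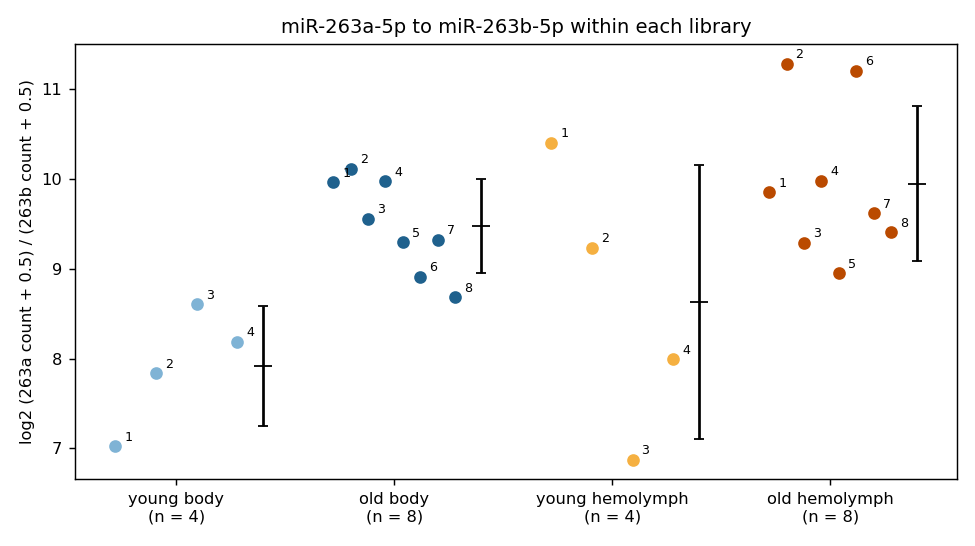
log2 ratio of miR-263a-5p to miR-263b-5p counts (vertical axis, 0.5 added to each count) in every library by group; numbered points are libraries and the black bar is the mean with SD. The 4 young body libraries, at 7.03 to 8.61, lie below the 8 old body libraries, at 8.68 to 10.1, and young hemolymph spans 6.88 to 10.4.

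The other arm of each hairpin was rare. miR-263a-3p had 1 to 10 counts in every library, and it made up 0.0997% of the hairpin's counts in young body (exact binomial 95% interval 0.0682% to 0.141%), 0.0735% in old body (0.0544% to 0.0972%), 0.0939% in young hemolymph (0.0565% to 0.147%) and 0.192% in old hemolymph (0.123% to 0.285%). Its mean level was 36.3 to 42.4 CPM in all 4 groups, while that of miR-263a-5p ran from 19511 to 50364 CPM. These shares sum the libraries of a group, and their intervals cover counting error only, not the spread between libraries. In young hemolymph libraries 1 to 4 miR-263a-3p had 8, 4, 2 and 5 counts, beside 10180, 9359, 293 and 382 of miR-263a-5p. Libraries 1 and 2 thus set the summed share there. In libraries 3 and 4, where miR-263a-5p was low, miR-263a-3p was at 35.7 and 72.2 CPM. A single count of miR-263b-3p was found, in old body library 1.

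Other microRNAs tied to the roles of the members moved in several directions. Of the 10 listed microRNAs known to act on cell death genes, 9 were tested between ages in body, where 3 rose and 2 fell with a median of 0.10. Over all 115 tested 19.1% rose and 29.6% fell, with a median of -0.20. The most abundant was bantam-3p, which also represses hid and stood at 59125 and 45166 CPM in young and old body (-0.46 ± 0.18, adjusted p = 0.0434), and miR-14-3p rose by 0.52 ± 0.20 (adjusted p = 0.0434). In old hemolymph against old body 1 of 8 was higher and 4 were lower (median -0.42), where 36.3% of all tested were higher and 46% lower (median -0.45). In young flies 5 of 8 were higher and 1 was lower (median 0.67), where 33.1% of all were higher and 40.3% lower (median -0.26). Of the 7 tested between ages in hemolymph 0 rose and 4 fell (median -0.59), where 18.6% of all 86 rose and 27.9% fell (median 0.02).

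Of the 7 listed microRNAs of sensory organ and photoreceptor development, 1 rose and 2 fell in old body (median -0.20), near the 19.1% and 29.6% of all tested. The 5 tested in hemolymph all fell with age (median -1.33), where 27.9% of the 86 tested fell (median 0.02). They are miR-9a-5p, miR-9b-5p, miR-9c-5p, miR-279-3p and miR-996-3p, which include related microRNAs and are not 5 separate cases. Their values by pairs of young libraries are not given here. miR-9a-5p, which sharpens the choice of sensory organ precursors, fell by 2.33 on the log2 scale in hemolymph (SE 0.32, adjusted p = 5.66e-05) and was at -0.75 ± 0.34 in body (adjusted p = 0.0877). Between compartments 3 of the 7 were higher and 2 lower in young hemolymph (median 0.60), where 33.1% of all were higher and 40.3% lower (median -0.26). In old flies 2 were higher and 4 lower (median -0.85), where 36.3% of all were higher and 46% lower (median -0.45). miR-279-3p, which limits the formation of carbon dioxide sensing neurons, was among those higher in hemolymph at both ages (1.67 ± 0.20 in young, adjusted p = 9.92e-08, and 0.69 ± 0.14 in old, adjusted p = 0.000109). Of the 6 listed gut microRNAs 4 rose and 1 fell in old body (median 0.59), where 19.1% of all rose and 29.6% fell (median -0.20). In hemolymph 4 rose with age (median 1.12), where 18.6% of all rose and 27.9% fell (median 0.02). Of the 6, 3 are products of the miR-281 hairpins, and how reads were split between the related miR-281-1-5p and miR-281-2-5p is not given in the sources used here. Across compartments 1 of the 6 was higher and 3 lower in young hemolymph (median -1.23), where 33.1% and 40.3% of all were (median -0.26). In old flies 2 were higher and 3 lower (median -0.71), where 36.3% and 46% of all were (median -0.45). miR-281-2-5p was lower in hemolymph by -2.36 ± 0.34 in young and -2.12 ± 0.24 in old flies (adjusted p = 1.11e-06 and 1.24e-08). The abundant miR-8-3p was higher (1.52 ± 0.23 and 1.20 ± 0.16, adjusted p = 1.89e-06 and 2.27e-07). miR-275-3p was not called in young flies (0.33 ± 0.27, adjusted p = 0.27) but was higher in old hemolymph (3.44 ± 0.21, adjusted p = 3.57e-13). It fell with age in body (-2.25 ± 0.21, adjusted p = 1.23e-05).

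Likeness of profiles was measured as the root mean square difference of log2 CPM, each microRNA centred on its own mean over the 24 libraries. Of 123 microRNAs compared, the nearest to miR-263a-5p were miR-316-5p (0.62), miR-13b-3p (0.70), a member of the miR-2 family that acts on cell death genes, and miR-9b-5p (0.75), where the median over all was 1.47. miR-316-5p was also low in young hemolymph libraries 3 and 4 (-1.74 and -1.62 from its own mean, with -2.43 and -2.14 for miR-263a-5p), and it reached -1.83 in old hemolymph library 3. The nearest to miR-263b-5p were miR-999-3p (0.65), miR-13b-3p (0.72) and miR-993-5p (0.77). In all 4 young hemolymph libraries and most old ones miR-993-5p was at -1.39, the value that 0 counts give it. miR-263b-5p was at its own such floor (-2.05) in old hemolymph libraries 2 and 6. Likeness to miR-263b-5p therefore rests partly on values at or near the floor. The members themselves were no closest pair. miR-263b-5p came 13th in likeness to miR-263a-5p and miR-263a-5p 15th in likeness to miR-263b-5p, at 0.93. All libraries enter this measure, and differences between compartments, ages and single libraries are not separated in it.

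**Figure D5:**
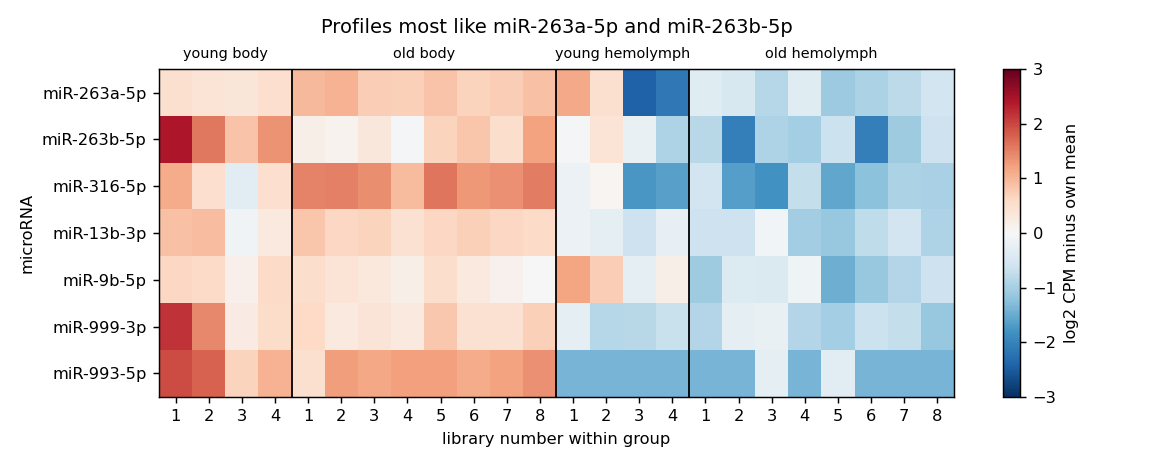
log2 CPM minus the microRNA's own mean over 24 libraries (colour scale) for miR-263a-5p, miR-263b-5p and the microRNAs with the most similar profiles (vertical axis), by library number within group (horizontal axis). miR-263a-5p and miR-316-5p share low values in young hemolymph libraries 3 and 4, and miR-263b-5p and miR-999-3p are highest in young body library 1.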

How the data were processed

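Counts per mature microRNA were deposited by the authors with RPM beside them, and each deposited RPM equalled the count over its column total within 0.005. The submitters' processing notes name Bowtie 1.0, edgeR and dm6, and per the labels' protocols libraries were TruSeq small RNA read as single reads of 50 bases. Of 476 rows, 10 repeat hairpin rows of a name already listed were left out. CPM was computed from the deposited counts, and no sample was left out. Fits used edgeR 4.0.16 (R 4.3.3), glmQLFit and glmQLFTest, TMM, filterByExpr with a minimum count of 10, and Benjamini-Hochberg adjustment over all microRNAs tested at 0.05. All 24 libraries entered the fits between compartments and of the age changes against each other, and the 12 of a compartment those between ages. SE is the log2 fold change over the root of F, an approximation at low counts. Ratios were tested by exact permutation (scipy 1.17.1, two-sided). Intervals are exact Poisson or Clopper-Pearson at 95%. The fits were tested on simulated data.

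Named microRNAs are the members, their 3p arms, the 3 nearest profiles of each by the likeness measure (prior count 2), and 3 lists with values for up to 3 members of highest mean CPM. Members and lists were chosen with earlier results of these data known. Alternatives were RLE, upper-quartile and no scaling factors, no filter, DESeq2 1.42.0, a replicate block, each code letter, each pair of young libraries, ovary microRNAs left out, summed rows, other sets of libraries, other pseudocounts, and leaving out each library. Replicate numbers were taken to pair young body with young hemolymph, because the deviations of all 4 same-numbered pairs correlated over 0.1 (0.12 to 0.603), with 3 of 4 body libraries closest to their own number. This pairing comes from the data, since the labels state none.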

Additional observations from a re-analysis of the deposited data

How the results depend on the processing

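miR-263b-5p stayed lower in hemolymph and called in all alternatives run in young (-2.54 to -1.25, and -2.30 to -1.48 with 1 library left out) and old flies (-2.45 to -1.65, and -2.30 to -1.93), though it did not pass the filter when only the 2 old groups were fitted. Its counts were low: hemolymph held 0 to 15 counts per library. For each value below that changed its call or sign, the cause was not tested.

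For miR-263a-5p in young hemolymph against body, the log2 fold change was -1.09 under RLE scaling, -1.09 with DESeq2, -1.17 with the replicate block and -3.19 with young libraries 3 and 4, all called, and 0.18 under upper-quartile scaling and 0.52 with young libraries 1 and 2, not called; leaving out 1 library gave -1.28 to -0.17. In old flies it was -1.33 with O-coded libraries, not called, and -1.55 to -1.38 with 1 library left out. Its rise in old body lost its call under upper-quartile scaling (0.23), library size alone (0.37), no filter (0.35), the replicate block (0.41), O-coded (0.28) or R-coded libraries (0.25), young libraries 3 and 4 (0.14), ovary microRNAs left out (0.28), summed rows (0.28) and all 24 libraries (0.39), with 0.19 to 0.54 when 1 library was left out. miR-263b-5p in old body lost its call with the replicate block (-1.62) and R-coded libraries (-0.93), with -1.50 to -0.95 when 1 library was left out.

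In old against young hemolymph miR-263a-5p was 0.22 with the replicate block, 1.61 with young libraries 3 and 4 and -1.64 with young libraries 1 and 2, and -0.90 to 0.055 with 1 library left out. The difference of its age changes was 1.66 with young libraries 3 and 4 and -1.93 with young libraries 1 and 2 (-1.31 to -0.20 with 1 left out). That of miR-263b-5p was 0.21 with O-coded libraries, 0.41 with young libraries 3 and 4 and 0.076 with summed rows (-0.65 to 0.19).

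The log2 ratio in old against young body was 1.99 with O-coded and 1.14 with R-coded libraries, 1.08 with young libraries 3 and 4 and 2.05 with young libraries 1 and 2, none called, and 1.27 to 1.80 with 1 library left out. Each code letter gave the smallest exact permutation p of 4 against 4 libraries (0.0286), and each pair of young libraries that of 8 against 2 (0.0444). Each fit without a young body library gave that of 8 against 3 (0.0121, adjusted p = 0.0606). None of these could give a smaller p, and beside the other p-values none passed the adjustment, so the lost calls say little. In young hemolymph against body the log2 ratio was -0.96 with young libraries 3 and 4 and 2.39 with young libraries 1 and 2. Its difference of age changes was 0.34 with pseudocount 0.1 and 0.029 with R-coded libraries. This difference was 1.43 with young libraries 3 and 4 and -1.92 with young libraries 1 and 2 (-0.83 to 0.35 with 1 left out).

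Calls over all microRNAs moved from 56 to 5 with the replicate block and 28 with either code letter in body between ages, from 40 to 20 with the block and 25 with O-coded libraries in hemolymph, and from 18 to 28 (RLE), 9 (no filter), 30 (DESeq2), 5 (R-coded) and 29 (young libraries 3 and 4) for the difference of age changes. Between ages and in old flies across compartments the numbers did not pair libraries (1 of 8 old pairs over 0.1, 2 of 4 in each age comparison). The block therefore rests on no pairing in these comparisons. Upper-quartile scaling changed the split of higher to lower calls from 41 and 50 to 55 and 45 in young hemolymph against body.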
